A study of Mus musculus and Homo sapiens with 9 samples.

Results

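The septins are a family of GTP-binding proteins that assemble into rods and then into filaments and rings under the plasma membrane. A rod is built from members of different similarity groups, named after SEPTIN2, SEPTIN6, SEPTIN7 and SEPTIN9, which bind each other in a fixed order. In dividing cells septin filaments lie at the contractile ring and the midbody, and in T cells they stiffen the cortex during migration. The data on 9 septin genes are given here, SEPTIN1, SEPTIN2, SEPTIN5, SEPTIN6, SEPTIN7, SEPTIN8, SEPTIN9, SEPTIN10 and SEPTIN11, found by their symbols among the 64252 rows of the human gene table, and their 9 mouse counterparts, Sept1 to Sept11 without Sept3 and Sept4, among the 43432 rows of the mouse table. The 9 genes were chosen with the J.gamma1 results known, in which SEPTIN9 was low after knockdown, so the J.gamma1 differences of the members are a description, with no p-value, and a call among them is given only beside the share of all genes called and supports nothing, and no mouse value entered the rule.

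RNA sequencing (RNA-seq) was carried out in 9 samples. J.gamma1, a human T cell acute lymphoblastic leukemia (T-ALL) line derived from Jurkat, carried a short hairpin with no target in the cells (shNC, n = 2) or a hairpin against IRF2BP2 (shIRF2BP2, n = 2), and the labels do not name which of the study's hairpins was used. IRF2BP2 is a nuclear cofactor that binds IRF2 and other transcription factors. The mouse samples were CD3+ T cells sorted magnetically from spleen, from mice labelled Irf2bp2 KO (n = 2) and from mice labelled Wild type control (n = 3). In the study's methods the knockout mice carry floxed Irf2bp2 alleles with Vav-iCre, which acts in the whole blood lineage and not in T cells alone, and the controls carry the floxed alleles without the Cre.

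The human libraries held 26648204 to 31120236 counts and the mouse libraries 16668577 to 37177523, the lowest being Wild type control replicate 3. Levels are given as CPM, counts per 1000000 counts of the library, with the library size scaled by the trimmed mean of M values (TMM). IRF2BP2 had 204 and 199 CPM with shNC and 79.0 and 93.8 with shIRF2BP2 (log2 fold change -1.22, adjusted p = 0.0023, edgeR), and Irf2bp2 had 112, 127 and 119.8 CPM in the controls and 0 counts in both knockout libraries. All 18 T cell marker genes examined were detected in both species, with a summed 2575 to 2947 CPM in J.gamma1 cells and 6243 to 9068 in the mouse libraries. Nothing in the labels says that replicates came from separate cultures, so p-values measure only the spread between these libraries. In bulk RNA, fewer cells of a type and less RNA per cell cannot be told apart.

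The members share the GTP-binding loop, a glycine-rich stretch that holds the phosphates of the nucleotide. Its codons are printed because every member has this loop, although the bases differ between members. They were read from hg38 along the canonical transcript, with the codons of the first and last glycine, the lysine and the serine in capitals.
SEPTIN1: GGGgagtcaggcctaGGGAAATCC
SEPTIN2: GGTgaatcaggtctaGGAAAATCG
SEPTIN5: GGTgagtcaggcctgGGGAAGTCC
SEPTIN6: GGAgagacaggtttgGGCAAGTCC
SEPTIN7: GGTgaatctggattgGGAAAGTCG
SEPTIN8: GGGgagaccggcattGGCAAATCC
SEPTIN9: GGGcagagcggcttgGGTAAATCC
SEPTIN10: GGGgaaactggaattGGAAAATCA
SEPTIN11: GGTgagacaggcattGGCAAATCC
The loop starts at residue 37 to 73 in 8 of the members and at residue 305 of 586 in SEPTIN9, which has a long region before its GTP-binding domain. In SEPTIN9 it is encoded at chr17:77487423-77487446 on the plus strand and in SEPTIN8 at chr5:132764397-132764420 on the minus strand. Over the aligned coding sequence, SEPTIN6 and SEPTIN11 were the most alike of the members (75.7% identical bases), followed by SEPTIN8 and SEPTIN11 (74.0%) and SEPTIN6 and SEPTIN8 (73.2%). SEPTIN9 was less like any other member (58.6% to 64.3%) than like SEPTIN3 (68.7%), which belongs to its group and was not among the genes chosen.

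SEPTIN9 and SEPTIN8 differed most between the J.gamma1 groups, and both were lower with shIRF2BP2. Of the 8 members with enough counts for the fit, 2 were called lower and 0 higher. A call needed 2 things, an adjusted p below 0.05 (edgeR, quasi-likelihood) and a log2 fold change beyond 0.5 in either direction. Among all 15819 genes tested, 5.01% were called lower and 5.46% higher. The members were chosen on this contrast, so nothing is read from the count.

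SEPTIN9 (chr17:77280569-77500596, plus strand, hg38) is the only one of the 9 members in the SEPTIN9 group and, as a fusion partner of KMT2A, a gene known from leukemia. It had 479 and 583 CPM with shNC and 223 and 276 with shIRF2BP2. Both knockdown libraries lay below both controls. The means were 531 ± 73.4 and 249 ± 37.4 CPM (SD, n = 2), a log2 fold change of -1.09 ± 0.16 (SE), or 2.13-fold lower.

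SEPTIN8 (chr5:132750819-132807241, minus strand), a member of the SEPTIN6 group, had 86.8 and 84.0 CPM with shNC and 58.5 in both shIRF2BP2 libraries. The groups were apart, with a log2 fold change of -0.55 ± 0.11 (SE, n = 2). The shIRF2BP2 replicates differed by less than counting error, so their closeness is no measure of precision. The call was lost without either shIRF2BP2 replicate, at log2 fold changes of -0.57 and -0.55. Such a fit leaves 1 shIRF2BP2 library, and the members were chosen with this contrast known, so nothing is read from it. The gene overlaps CCNI2 on the opposite strand, whose counts came to 4.94% of those of SEPTIN8. Whether the counting used strand is not given in the sources used here.

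**Figure D1:**
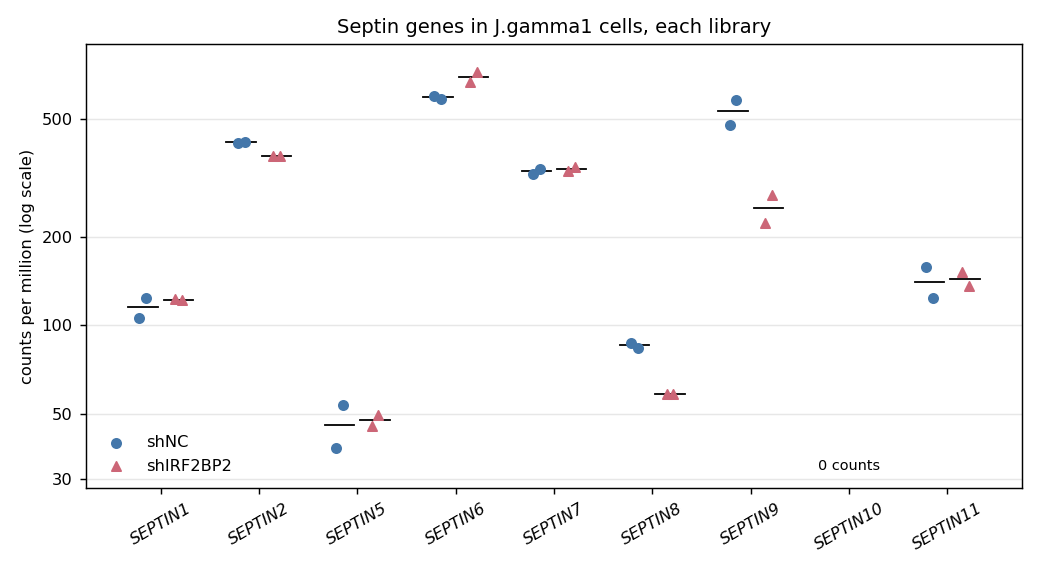
Level of each septin gene in J.gamma1 cells, in CPM on a log axis. Circles are the 2 shNC libraries, triangles the 2 shIRF2BP2 libraries and bars the group means. SEPTIN9 (479 and 583 against 223 and 276 CPM) and SEPTIN8 (86.8 and 84.0 against 58.5) were lower with shIRF2BP2, and SEPTIN10 had 0 counts.

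The other members of the SEPTIN6 group did not move with SEPTIN8. SEPTIN6 (chrX:119615724-119693370, minus strand), another KMT2A fusion partner, had 602 and 587 CPM with shNC and 671 and 721 with shIRF2BP2. Its knockdown libraries were the higher ones, with a log2 fold change of 0.23 ± 0.127 (SE, n = 2). SEPTIN11 (chr4:76949751-77040384, plus strand) had 157 and 124 CPM with shNC and 151 and 136 with shIRF2BP2, and the groups overlapped. SEPTIN10 (chr2:109542799-109614143, minus strand) had 0 counts in all 4 libraries, where a count of 0 allows up to 3 counts in a library.

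In the SEPTIN2 group, SEPTIN2 (chr2:241315100-241354027, plus strand), which bundles along actin fibers, had 417 and 420.0 CPM with shNC and 374 and 375 with shIRF2BP2. The groups did not overlap, at a log2 fold change of -0.16 ± 0.119 (SE, n = 2). SEPTIN2 shares its locus with HDLBP on the opposite strand, whose counts came to 94.5% of those of SEPTIN2. SEPTIN1 (chr16:30378135-30395991, minus strand) had 106 and 124 CPM with shNC and 123 and 122 with shIRF2BP2. SEPTIN5 (chr22:19714503-19724224, plus strand), best known from platelets and nerve terminals, had 38.3 and 53.6 CPM with shNC and 45.5 and 49.5 with shIRF2BP2. The groups overlapped for both SEPTIN1 and SEPTIN5. SEPTIN1 overlaps ZNF48 on the opposite strand, whose counts came to 19.8% of those of SEPTIN1. SEPTIN5 overlaps GP1BB on the same strand, whose counts came to 7.21% of those of SEPTIN5.

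SEPTIN7 (chr7:35800932-35907110, plus strand) is alone in its group and present in most septin rods. It had 327 and 339 CPM with shNC and 334 and 344 with shIRF2BP2, the steadiest of the abundant members (log2 fold change 0.02 ± 0.119 (SE, n = 2)). SEPTIN7 has processed and unprocessed pseudogenes, of which SEPTIN7P14 and SEPTIN7P2 held counts equal to 5.58% and 3.95% of its own. Adding all pseudogene rows to their parents, and GP1BB to SEPTIN5, changed no call of a member.

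Of the septins outside the 9 members, SEPTIN3, a neuronal septin of the SEPTIN9 group, was higher with shIRF2BP2. It had 64.1 and 59.1 CPM with shNC and 93.2 and 91.8 with shIRF2BP2, a log2 fold change of 0.59 ± 0.114 (SE, n = 2, adjusted p = 0.018, edgeR). This call was also lost without shIRF2BP2 replicate 1 (adjusted p = 0.12) or replicate 2 (adjusted p = 0.074). SEPTIN4 was low, with 48 and 129 counts with shNC and 67 and 91 with shIRF2BP2, and SEPTIN12 and SEPTIN14 had 0 counts in every library.

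Levels can be compared between genes only per length. Per kb of merged exons, SEPTIN6 stood highest with shNC (96.3 and 93.9 CPM per kb), before SEPTIN2 (56.5 and 56.9), SEPTIN9 (34.8 and 42.3), SEPTIN1 (25.2 and 29.4), SEPTIN7 (19.1 and 19.8), SEPTIN11 (16.1 and 12.7), SEPTIN8 (11.3 and 10.9) and SEPTIN5 (8.39 and 11.7). The ranges of SEPTIN8 and SEPTIN5 overlapped and those of the other neighbors did not. With shIRF2BP2, SEPTIN9 stood below SEPTIN1, at 16.2 and 20.0 CPM per kb, and overlapped SEPTIN7 (19.5 and 20.1), while SEPTIN8 stood behind SEPTIN5. The order among SEPTIN2, SEPTIN9, SEPTIN1 and SEPTIN7 depends on the length used, since merged exons span 13772 bases in SEPTIN9 and 17138 in SEPTIN7, against 4451 and 4399 in the longest coding transcript. Per kb of that transcript SEPTIN9 with shNC ranged from 108 to 131 CPM per kb, which takes in SEPTIN6 (126 to 129) and SEPTIN2 (113 to 114). SEPTIN8 and SEPTIN5 with shNC did not keep their order on that measure either, at 19.8 and 19.1 against 17.1 and 23.9.

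As a share of the summed CPM per kb of the 9 members, SEPTIN9 took 14.1 ± 1.58% with shNC and 6.90 ± 0.82% with shIRF2BP2 (SD, n = 2), and SEPTIN6 took 34.9 ± 1.54% and 42.5 ± 0.799%. With the longest coding transcript as the length, SEPTIN9 took 20.7% and 10.7%. The summed CPM of the 9 members, not divided by length, was 2213 and 2315 with shNC and 1980 and 2081 with shIRF2BP2, and the groups did not overlap. Per kb of merged exons the sums met, at 268 and 278 with shNC and 256 and 268 with shIRF2BP2.

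**Figure D2:**
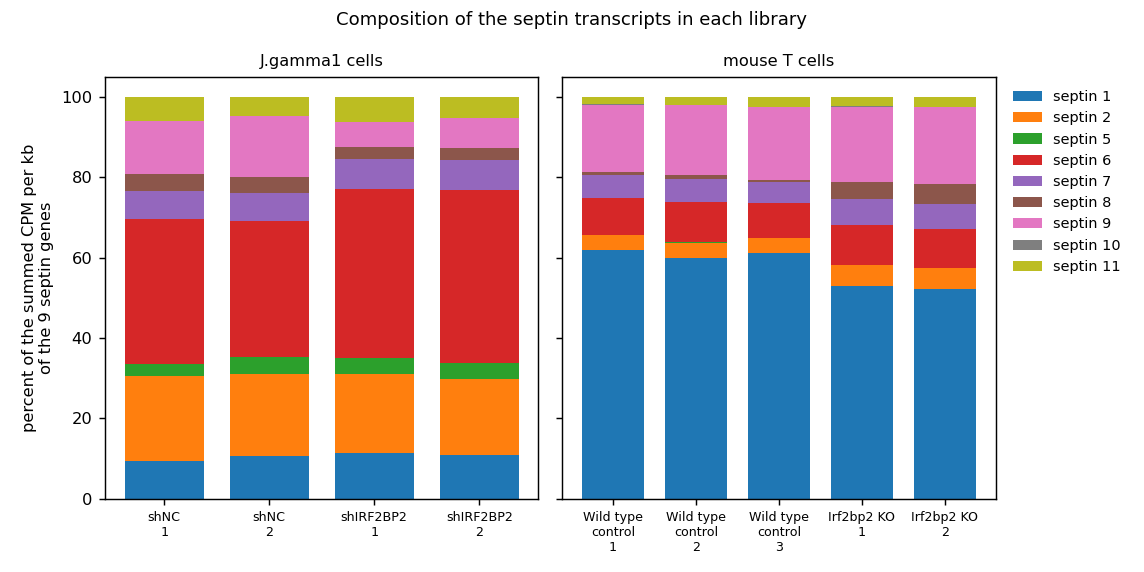
Share of each septin gene in the summed CPM per kb of merged exons of the 9 genes, in percent, 1 bar per library. In J.gamma1 cells SEPTIN9 took 14.1% with shNC and 6.90% with shIRF2BP2 on average. In mouse T cells Sept1 took 61.1% in the controls and 52.6% in the knockout, and Sept8 0.711% and 4.59%.

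The 3' UTRs of the members that were lower hold a word that earlier analysis of these libraries had found in genes lower with shIRF2BP2, so its presence here is not independent evidence. In the canonical transcripts, SEPTIN9 holds AGGTCTAA, SEPTIN8 holds GGTCTAA and SEPTIN2 holds GGTCTA. The windows are printed with the word in capitals to show how much of it each gene carries.
SEPTIN9: cagttttgaaaAGGTCTAAgcaagtgagtc
SEPTIN8: cagatcaatatGGTCTAAagcttcaataag
SEPTIN2: aattagcagttGGTCTAttcagaatcaaac
The windows lie at chr17:77499479-77499508 on the plus strand, chr5:132751385-132751414 on the minus strand and chr2:241352838-241352867 on the plus strand (hg38). The 3' UTRs of SEPTIN1, SEPTIN5, SEPTIN6, SEPTIN7, SEPTIN10, SEPTIN11 and SEPTIN3 hold none of these words. The GTP-binding loop codons of SEPTIN2 printed above also contain AGGTCTA, in the coding sequence. The members' J.gamma1 differences entered their choice, so no relation between the words and these differences is drawn.

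Over all genes with a 3' UTR examined, 205 (1.61%) had AGGTCTAA as the longest of these words, and their median log2 fold change was -0.22, with 22.4% called lower. AGGTCTA was the longest in 509 genes (4.01%), with a median of -0.10 and 18.7% called lower. GGTCTAA was the longest in 388 genes (3.06%), with a median of -0.11 and 16.8% called lower, and GGTCTA in 915 (7.21%), with a median of -0.02 and 8.96% called lower. Of the 10682 genes with none, 4.33% were called lower. In the same order of words, 2.93%, 4.91%, 4.64% and 7.0% were called higher, and 6.64% of the genes with none. The words were found in genes lower in these same libraries. Larger shares called lower among genes that hold them follow from that choice and support nothing. The length of the 3' UTR, which affects how often a word occurs, was not taken into account. The 3' UTR and the coding sequence of IRF2BP2, the target of the hairpin, both hold AGGTCTA. The sequence of the hairpin was not compared with these words. For SEPTIN9 and SEPTIN8, a direct effect of the hairpin cannot be told apart in these libraries from an effect of the loss of IRF2BP2. Neither was tested here. Separately, the paper names SEPTIN9 in its RAG1 coexpression set and reports lower SEPTIN9 by quantitative PCR in IRF2BP2-knockdown cells.

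Septins act with a set of partners, and these were examined as lists. The lists were written with earlier results of these data known, so their counts and p-values are a description. Of all genes tested in J.gamma1 cells, 5.46% were called higher and 5.01% lower. No list was tested against these shares, and nothing is read from the counts. Of 14 genes of septin effectors and binding partners, 12 were tested in J.gamma1 cells, and 2 were higher and 0 lower (median log2 fold change 0.18, against 0.01 over all genes). CDC42, the small GTPase whose effectors of the CDC42EP family bind septins, had 161 ± 4.23 CPM with shNC and 321 ± 1.30 with shIRF2BP2 (SD, n = 2), a log2 fold change of 1.00 (adjusted p = 0.003, edgeR). ARHGEF18, an exchange factor for RhoA that binds SEPTIN9, rose by a log2 fold change of 0.51 (adjusted p = 0.03, edgeR). Anillin (ANLN), which links septins to the contractile ring, had a log2 fold change of -0.13 (adjusted p = 0.54).

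Of 20 genes of the cytokinesis ring and midbody, 1 was lower and 0 were higher (median 0.02), beside 5.01% and 5.46% of all genes. This was MYL12A, a regulatory light chain of non-muscle myosin, at 177 ± 20.5 CPM with shNC and 72.7 ± 1.66 with shIRF2BP2 (SD, n = 2, log2 fold change -1.28, adjusted p = 0.002, edgeR). Its 3' UTR holds GGTCTA, the longest of the words above in 7.2% of genes, of which 8.96% were called lower. Of 15 genes of cortical actin and the ezrin, radixin and moesin linkers, 2 were higher and 0 lower (median -0.01). The shares of all genes were again 5.46% and 5.01%. FLNA, the actin crosslinker filamin A, rose by a log2 fold change of 1.12 and RDX, radixin, by 0.83 (adjusted p = 0.0055 and 0.0049, edgeR). The 3' UTRs of FLNA, RDX, CDC42 and ARHGEF18 hold none of the words. A link between the words and these differences was not tested.

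In mouse T cells 1 septin was called, Sept8, and it was higher in the knockout. The rule used no mouse value, and the members were tested with edgeR over all 15350 genes. Of the 9 members, 1 was called higher and 0 lower. Calls here needed an adjusted p below 0.05 with the log2 fold change beyond 1 in either direction, by which 2.47% of all genes tested were higher and 0.111% lower.

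Sept8 (chr11:53519257-53549565, plus strand, mm10) had 14.7, 19.0 and 12.6 CPM in the Wild type control libraries and 70.1 and 85.3 in the Irf2bp2 KO libraries. Both knockout libraries lay far above all 3 controls. The log2 fold change was 2.33 ± 0.203 (SE, 95% interval 1.84 to 2.81), a 5.01-fold difference, with an adjusted p of 0.008 (edgeR, Benjamini-Hochberg). Without Wild type control replicate 1 the adjusted p was 0.056 and without Irf2bp2 KO replicate 2 it was 0.085, at log2 fold changes of 2.29 and 2.16. In these fits 6 and 9 genes in all were called higher, and no septin. No gene of the annotation used overlaps Sept8.

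Markers of red blood cell precursors moved with Sept8. The summed level of 12 erythroid marker genes was 134, 184 and 63.4 CPM in the controls and 1259 and 1518 in the knockout, and 10 of the 12 were called higher (median log2 fold change 3.39). The libraries fell in the same order by Sept8 as by this sum, in the controls and in the knockout. In the controls the B cell, myeloid and platelet marker sums had this order too, and in the knockout the NK and T cell sums did. The order within a group is thus not particular to the erythroid list. None of the 12 was at 0 in any group, with Slc4a1, the anion exchanger of the red cell membrane, the most abundant at 14.1 to 54.5 CPM in the controls and 403 and 504 in the knockout. The part of erythroid RNA in the Sept8 difference was not tested. The marker lists of B, myeloid and NK cells and platelets overlapped between the groups, with B cell markers at 38.1 to 288 CPM in the controls against 40.7 and 135 in the knockout, myeloid markers at 82.3 to 539 against 177 and 280, platelet markers at 7.82 to 17 against 11.9 and 16.6, and NK cell markers at 78.5 to 108 against 105 and 217.

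**Figure D3:**
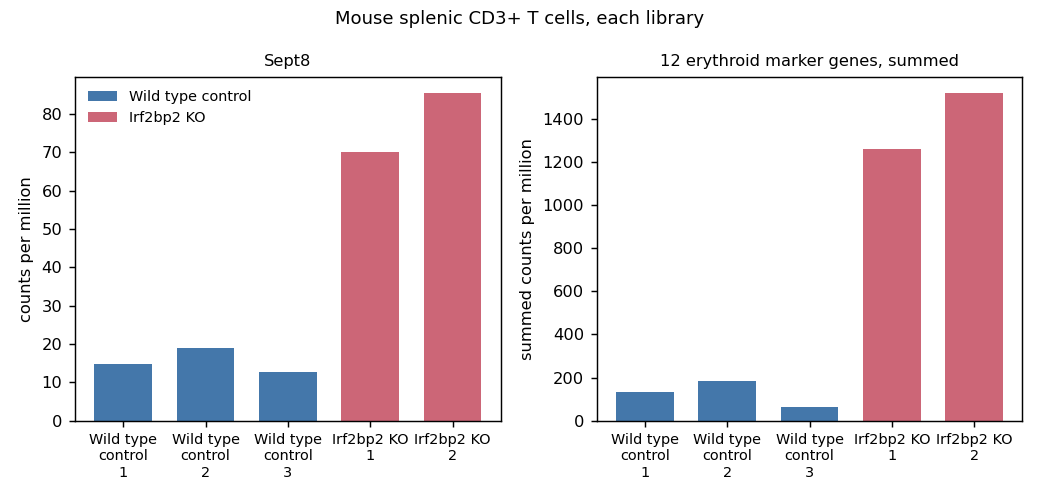
Sept8 (left) and the sum of 12 erythroid marker genes (right) in each mouse library, in CPM on linear axes from 0. Both were higher in the 2 Irf2bp2 KO libraries (70.1 and 85.3 CPM, and 1259 and 1518 CPM) than in the 3 Wild type control libraries (12.6 to 19.0 CPM, and 63.4 to 184 CPM).

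The rest of the SEPTIN6 group did not rise. Sept6 (chrX:36911326-36991794, minus strand) had 329, 342 and 321 CPM in the controls and 267 and 271 in the knockout, a log2 fold change of -0.30 ± 0.119 (SE, adjusted p = 0.28). Sept11 (chr5:93093437-93176447, plus strand) had 60.4, 63.7 and 82.8 CPM in the controls and 59.2 and 63.7 in the knockout, and the groups overlapped (adjusted p = 0.70). Sept10 (chr10:59141627-59221847, minus strand) was low, with 19, 23 and 9 counts in the controls and 39 and 7 in the knockout.

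Sept1 (chr7:127214447-127233130, minus strand) had the largest negative difference. It had 615, 577 and 623 CPM in the controls and 397 and 411 in the knockout, so that no library of one group reached the other. The log2 fold change was -0.58 ± 0.125 (SE, 95% interval -0.88 to -0.29) and did not pass the test (adjusted p = 0.068, edgeR). The adjusted p fell to 0.046 without Wild type control replicate 2 and to 3.94e-05 with DESeq2, still short of the fold required. The summed T cell markers were also lower in the knockout, at 6243 and 6600 CPM against 7979 to 9068, 16 of the 18 genes lying below 0 (median -0.43 on the log2 scale). The part of the T cell share in the Sept1 difference was not tested. Sept1 overlaps Zfp553 on the opposite strand, whose counts came to 5.30% of its own.

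Sept9 (chr11:117199661-117362325, plus strand), the counterpart of the gene with the largest difference in J.gamma1 cells, had 458, 459 and 504 CPM in the controls and 384 and 413 in the knockout. The knockout libraries were below all controls, by a log2 fold change of -0.25 ± 0.128 (SE, 95% interval -0.55 to 0.06, adjusted p = 0.41). Sept7 (chr9:25252439-25308571, plus strand) had 238, 237 and 227 CPM in the controls and 207 and 209 in the knockout, a log2 fold change of -0.17 ± 0.116 (SE, adjusted p = 0.55). Sept2 (chr1:93478964-93510260, plus strand) was slightly higher, with 104, 104 and 106 CPM in the controls and 113 and 115 in the knockout, a log2 fold change of 0.12 ± 0.11 (SE, adjusted p = 0.66). Sept5 (chr16:18620502-18629954, minus strand) had 8, 23 and 3 counts in the controls and 14 and 32 in the knockout. It overlaps Gp1bb on the same strand, whose counts came to 28.8% of those of Sept5.

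**Figure D4:**
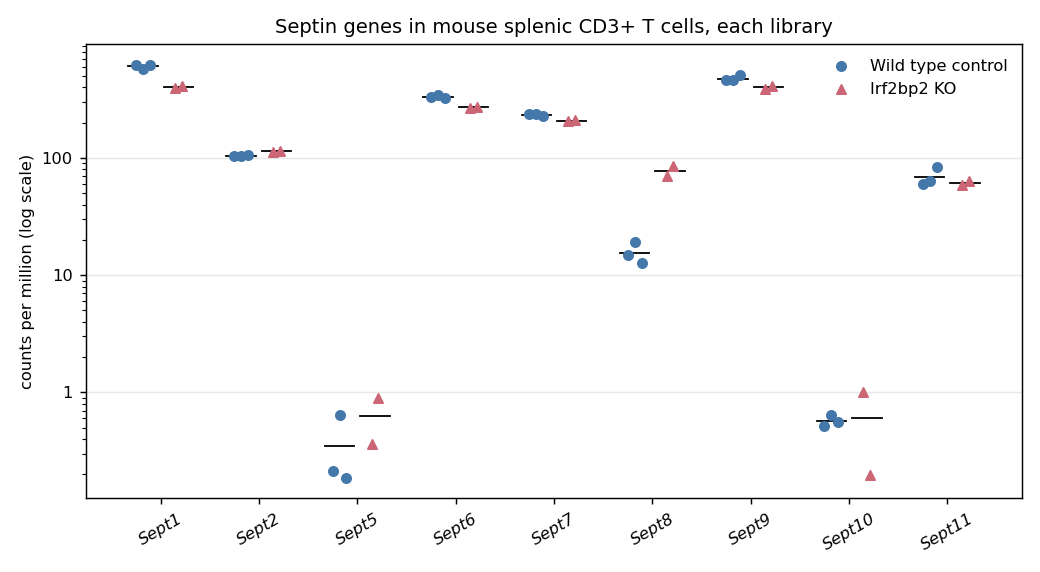
Level of each septin gene in mouse splenic CD3+ T cells, in CPM on a log axis. Circles are the 3 Wild type control libraries, triangles the 2 Irf2bp2 KO libraries and bars the group means. Sept8 was at 12.6 to 19.0 CPM in the controls against 70.1 and 85.3 in the knockout, Sept1 was at 577 to 623 against 397 and 411, and Sept5 and Sept10 were near 1 CPM or below.

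Per kb of merged exons Sept1 was the leading septin of mouse T cells, at 209 to 226 CPM per kb in the controls, before Sept9 (60.6 to 66.7), Sept6 (32.5 to 34.6), Sept7 (19.5 to 20.4), Sept2 (13.0 to 13.3), Sept11 (6.38 to 8.75) and Sept8 (2.07 to 3.13). No neighbors among these overlapped. Per kb of the longest coding transcript Sept7 passed Sept6 (89.5 to 93.8 against 68.7 to 73.2), and the rest of the order held. In the knockout Sept8, at 11.5 and 14 CPM per kb, had passed Sept11 (6.25 and 6.72) and came next below Sept2 (14.1 and 14.5). The share of Sept8 in the summed level of the 9 members was 0.711 ± 0.172% in the controls (SD, n = 3) and 4.59 ± 0.491% in the knockout (SD, n = 2), and that of Sept9 was 17.5 ± 0.599% and 19.0 ± 0.391%.

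Different septins led in the J.gamma1 cells and the mouse T cells. In J.gamma1 cells SEPTIN6 had the highest level per kb of merged exons in the control libraries and in mouse T cells Sept1, whose counterpart stood behind SEPTIN6, SEPTIN2 and SEPTIN9 in J.gamma1 cells. Septins of the SEPTIN2 group took 34.5 ± 1.18% of the summed level with shNC (SD, n = 2) and 64.8 ± 0.9% in the Wild type control libraries (SD, n = 3). These shares come from separate tables of different species, and no test was made between them.

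**Figure D5:**
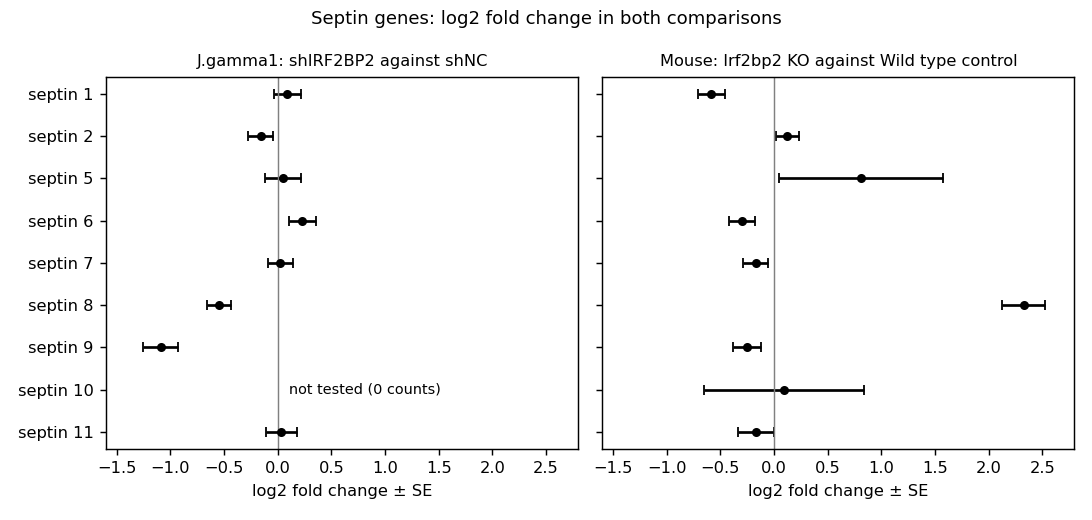
Log2 fold change of each septin gene with its standard error, for shIRF2BP2 against shNC in J.gamma1 cells (left, n = 2 and 2) and for Irf2bp2 KO against Wild type control in mouse T cells (right, n = 2 and 3). Septin 9 was lowest in J.gamma1 cells (-1.09) and septin 8 highest in mouse T cells (2.33). Septin 10 had 0 counts in J.gamma1 cells and was not tested there.

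The same lists were examined in the mouse, again as a description. Of all genes tested there, 2.47% were called higher and 0.111% lower, and no list was tested against these shares. Of 14 septin effectors and binding partners, 11 were tested, and 4 were higher and 0 lower (median log2 fold change 0.38, against -0.02 over all genes). Anln had 4.48, 6.06 and 3.32 CPM in the controls and 30.9 and 25.4 in the knockout, a log2 fold change of 2.59 (adjusted p = 0.01, edgeR). Myh10, a non-muscle myosin heavy chain, Cit, the citron kinase of the midbody, and Cdc42ep4, a septin-binding effector of Cdc42, rose by log2 fold changes of 2.54, 2.0 and 1.29 (adjusted p = 0.0089, 0.0084 and 0.041, edgeR). Cdc42 had a log2 fold change of -0.23 (adjusted p = 0.45).

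Of the 20 cytokinesis genes, 6 were higher and 0 lower in the knockout (median 0.72), beside 2.47% and 0.111% of all genes. Kif14, Prc1, Diaph3 and Plk1, which act in the midbody, the central spindle, actin assembly and mitotic entry, rose by log2 fold changes of 2.27, 2.08, 2.08 and 1.73 (adjusted p = 0.012, 0.01, 0.012 and 0.035, edgeR). The part of erythroid RNA in these differences was not tested. Without Wild type control replicate 1 or Irf2bp2 KO replicate 2, 0 of the partner, cytokinesis and cortical actin genes were called, and 1 without Irf2bp2 KO replicate 1, against 10 with all libraries. Of the 15 cortical actin genes 0 were called in either direction, with a median of -0.33 and 13 of 15 below 0.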

How the data were processed

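RNA-seq gene counts of 4 J.gamma1 libraries and 5 mouse T cell libraries were used as deposited. Per the labels and the methods, the authors aligned reads to hg38 or mm10 with HISAT2 (version 2.2.0) and quantified genes with StringTie. The deposited values are raw counts per gene, neither normalized nor pooled, and how they were derived from read coverage is not given in the sources used here. The 56105 human and 42462 mouse rows with an Ensembl annotation (GENCODE 44 and M21) entered the analysis. Genes passing edgeR's expression filter were tested with its quasi-likelihood test (edgeR 4.0.16, R 4.3.3, TMM factors) with Benjamini-Hochberg adjustment, for shIRF2BP2 against shNC and for Irf2bp2 KO against Wild type control. Genes were called where the adjusted p was below 0.05 and the log2 fold change exceeded 0.5 (J.gamma1) or 1 (mouse) in size. SE is that of the log2 fold change, and SD is over libraries. DESeq2 1.42.0 and other scalings, filters, thresholds and left-out libraries were tried as alternatives. The scripts were tested on simulated data.

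The members and gene lists were chosen with earlier results of these data known. The text names all members, the other septins in J.gamma1 cells, and at most the 4 called genes with the largest change per partner list. Of the overlapping genes and pseudogenes, it names those with the most counts relative to their member. Genes outside that rule (ANLN and Cdc42, for their link to septins, and Slc4a1) were chosen after their values were seen. Levels per length used merged exons, with the longest coding transcript as the alternative. Sequences came from hg38 along canonical GENCODE transcripts. With 2 or 3 libraries a group the spread between libraries is itself uncertain, and for some members (SEPTIN8 and SEPTIN2 with shIRF2BP2) it was smaller than counting error.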

Additional observations from a re-analysis of the deposited data

Results flagged for a closer look

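For 3 septins, the log2 fold changes had opposite directions in the human and the mouse comparison with no overlap between the groups in either. The share of all genes that meet this rule was not computed, so nothing is read from the number of septins that do. SEPTIN8 had a log2 fold change of -0.55 with shIRF2BP2 in J.gamma1 cells and Sept8 one of 2.33 in Irf2bp2 KO mouse T cells, where erythroid markers were also higher. SEPTIN6 had 0.23 and Sept6 -0.30, and SEPTIN2 had -0.16 and Sept2 0.12, and of these 4 values only that of Sept6 has a 95% interval that does not hold 0. The difference between the comparisons, a knockdown in a human line and a knockout in mouse cells, was not tested for any of them.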

How the results depend on the processing

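Septins with under 100 counts in a library, such as Sept3, Sept5 and Sept10 in the mouse, are too shallow to show a small difference, and their intervals are wide. With 2 or 3 libraries a group, leaving 1 out changed several counts of calls.

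In J.gamma1 cells, members called lower numbered 1 with genes of at least 1 count in any sample kept and 1 at a log2 fold threshold of 1, and 1 to 2 with a library left out, against 2. All genes called lower and higher numbered 396 and 319 with the looser filter, 318 and 262 at a threshold of 1, and ranged from 419 to 1143 lower and 418 to 1608 higher with a library left out. Partner, cytokinesis and cortical actin genes called lower numbered 2 with DESeq2 and 2 with the replicate block, against 1, and those called higher numbered 2 at a threshold of 1, against 4. In the mouse, DESeq2 called 64 genes lower and 733 higher, and the replicate block 35 lower. With a library left out, 1 to 35 genes were lower, 6 to 532 higher, 0 to 1 members higher and 0 to 14 partner, cytokinesis and cortical actin genes higher. With the longest coding transcript, the share of SEPTIN9 was 20.7% with shNC and 10.7% with shIRF2BP2, and that of Sept9 16.6% in the controls and 17.9% in the knockout.

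Small differences changed sign. With upper-quartile factors the log2 fold change was -0.0090 for SEPTIN5, -0.029 for SEPTIN7 and -0.018 for SEPTIN11, and with the looser filter it was -0.0065 for SEPTIN7. With a library left out it ran from -0.025 to 0.20 for SEPTIN1, from -0.18 to 0.31 for SEPTIN5, from -0.0058 to 0.050 for SEPTIN7, from -0.13 to 0.21 for SEPTIN11, from -0.63 to 0.54 for SEPTIN4 and from -1.54 to 0.81 for Sept10. Sept10 was at -0.24 with the replicate block. The cause was not tested. All other septins tested, SEPTIN9 and Sept8 among them, kept their direction under every alternative. For SEPTIN9, chosen with its low level in these libraries known, this supports nothing.

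The labels give no pairing beyond shared replicate numbers. The deviations of same-numbered libraries from their group means correlated across genes with r = 0.23 in J.gamma1 cells, and with 0.15 and -0.16 for the 2 numbers in the mouse, where the differently numbered Wild type control replicate 3 and Irf2bp2 KO replicate 2 had 0.26. The replicate block left 2 members called lower in J.gamma1 cells and 1 higher in the mouse, Sept8 at 2.21.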
